A study of Mus musculus with 6 samples.

Results

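The 10 genes described here mark the hepatocytes around the central vein of the liver lobule, or respond to the Wnt signal that these cells receive. They are Glul, Slc1a2, Rhbg, Oat, Cyp1a2, Rgn, Lect2, Axin2, Lgr5 and Tbx3. They were chosen by name for their known biology, but with earlier results of these data known. Counts among them are therefore not those of a list picked without sight of the data. All 10 were found among the 17975 genes of the deposited table, and all 10 had enough reads to be tested. RNA was sequenced from 6 mouse livers, 1 liver per mouse and 3 mice per group. The Hom mice carried NEK7 fl/fl with Alb-Cre, so that Nek7, a mitotic kinase that also takes part in the NLRP3 inflammasome, was deleted in cells that use the albumin promoter. The WT mice were, by the breeding scheme, either NEK7 fl/fl or Alb-Cre(+), and the sources used here do not say which allele each WT liver carried. Those sources give an age range for the study's mice in general and say that knock-out mice of both sexes were used, but they do not tie an age or sex to these 6 livers. All mice were on a C57BL/6 background, no group was treated, and whole liver tissue was sequenced. The p-values below measure the spread between these mice.

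In the liver lobule, blood flows from the portal vein toward the central vein, and hepatocytes carry out different tasks along this path. Endothelial cells of the central vein secrete Wnt2, Wnt9b and the R-spondin Rspo3. In the adjacent hepatocytes these signals stabilise beta-catenin, which works with TCF/LEF factors to switch on the pericentral program of glutamine synthesis and xenobiotic metabolism. Axin2 and Lgr5 are classical readouts of this pathway.

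The libraries held between 19349356 and 19730154 rounded reads. Nek7 (NCBI Gene 59125) was at 62.9, 69.1 and 63.7 CPM (counts scaled to library size with TMM factors, a correction for library composition) in the WT livers, and at 14.5, 18.1 and 16.7 CPM in the Hom livers, so every library carried the Nek7 level its label implies. TMM factors were 0.81 to 0.92 in WT and 1.09 to 1.23 in Hom livers, so that the values below depend on the scaling. Scaling by library size alone moved the median log2 fold change of all 13805 tested genes from −0.0018 to 0.45, and scaling to the summed reads of 15 general hepatocyte genes (hepatocyte scaling) moved it to 0.62. Hom replicate 1 stood apart from the other Hom livers. It had 0 reads on the Y-linked genes Ddx3y and Kdm5d, against at least 243 in each of the other 5 livers. On the Y-linked genes Eif2s3y and Uty it had 4 and 149 reads, against at least 582 and 464 in each of the others. The summed level of the 10 genes was 1092 CPM there, against 2070 and 2001 CPM in Hom replicates 2 and 3. The labels give no sex for this mouse, and the part of sex in its values was not tested. Differences of the 10 genes are given below both with it and without it.

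For 6 of the 10 genes the RefSeq promoter table (GRCm38.p6) held an entry, namely Glul, Slc1a2, Oat, Cyp1a2, Lect2 and Axin2. The 250 bases before each start were searched on both strands for CTTTGAT and CTTTGAA, which are forms of the TCF/LEF motif that differ only in the last base. One form or the other was present for 3 of the 6 genes and in 7.48% of all 32851 promoters of this length. Neither form was present in these windows for Glul, Oat or Axin2. The Glul window ends before the gene start that GENCODE M21 gives, at 153899944, and its far end lies in an annotated exon. Only the 3 sequences that hold a match are shown. Their genes were lower in Hom livers, but so were Glul and Oat, which had no match. The match is in capitals, on the strand opposite to the gene. Each stretch runs from the far end of the window and stops before the first base that GENCODE M21 places in any exon.
Cyp1a2, chr9:57683704-57683905, minus strand: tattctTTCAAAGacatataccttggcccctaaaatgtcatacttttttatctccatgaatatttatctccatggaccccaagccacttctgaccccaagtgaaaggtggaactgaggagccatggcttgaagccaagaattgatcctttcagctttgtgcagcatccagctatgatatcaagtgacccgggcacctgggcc
Slc1a2, chr2:102706188-102706355, plus strand: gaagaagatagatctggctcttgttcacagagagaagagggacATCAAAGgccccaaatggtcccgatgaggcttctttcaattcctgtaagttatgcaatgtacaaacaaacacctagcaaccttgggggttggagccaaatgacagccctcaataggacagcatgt
Lect2, chr13:56548539-56548788, minus strand: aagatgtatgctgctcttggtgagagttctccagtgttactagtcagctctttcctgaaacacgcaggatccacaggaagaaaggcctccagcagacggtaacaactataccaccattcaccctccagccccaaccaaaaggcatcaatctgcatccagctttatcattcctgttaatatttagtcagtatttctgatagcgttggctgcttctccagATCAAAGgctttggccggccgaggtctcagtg
The match lay 244 to 238 bases before the start of Cyp1a2, 207 to 201 before that of Slc1a2 and 32 to 26 before that of Lect2. The Slc1a2 start is an internal one, since GENCODE M21 begins the gene upstream, at 102658659 on chromosome 2, and the stretch shown lies in an intron of that longer form. A match describes the letters and does not show binding.

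Gene positions below are those of GENCODE M21 on GRCm38, where all 10 genes are protein-coding. Of the 10 genes, 6 were lower in Hom than in WT livers (Glul, Slc1a2, Oat, Cyp1a2, Rgn and Lect2) and 0 were higher (edgeR's quasi-likelihood test, Benjamini-Hochberg adjusted p under 0.05 over all tested genes). Over all 13805 tested genes, 20.1% were called lower and 21.5% higher, or 41.7% in either direction. For 7 of the 10 genes the highest Hom liver was under the lowest WT liver, which held for 27.0% of all tested genes. The opposite order was found for 0 of the 10 and for 28.7% of tested genes (55.6% for both orders). Log2 fold changes ran from −2.30 to −0.05 across the 10 genes, and their median was −1.14, against −0.0018 for all tested genes. The 4 genes that did not pass the threshold were Rhbg, Axin2, Lgr5 and Tbx3, all with means under 25 CPM in both groups. The count of lower genes was also 6 without Hom replicate 1, and it was 5 with library size alone and 3 with hepatocyte scaling. The background moved with the scaling too. Of all 13805 tested genes, 2780 were lower with TMM factors, 642 with library size alone and 333 with hepatocyte scaling. The genes called higher were 2974, 6574 and 6350 in the same order. Without Hom replicate 1 the log2 fold changes were −1.18 for Slc1a2, −1.14 for Oat, −1.37 for Rgn, −1.17 for Lect2, −0.08 for Axin2, −0.38 for Lgr5 and −0.15 for Tbx3, with the calls unaltered. In bulk tissue, fewer hepatocytes of a zone and less RNA per cell cannot be told apart.

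**Figure D1:**
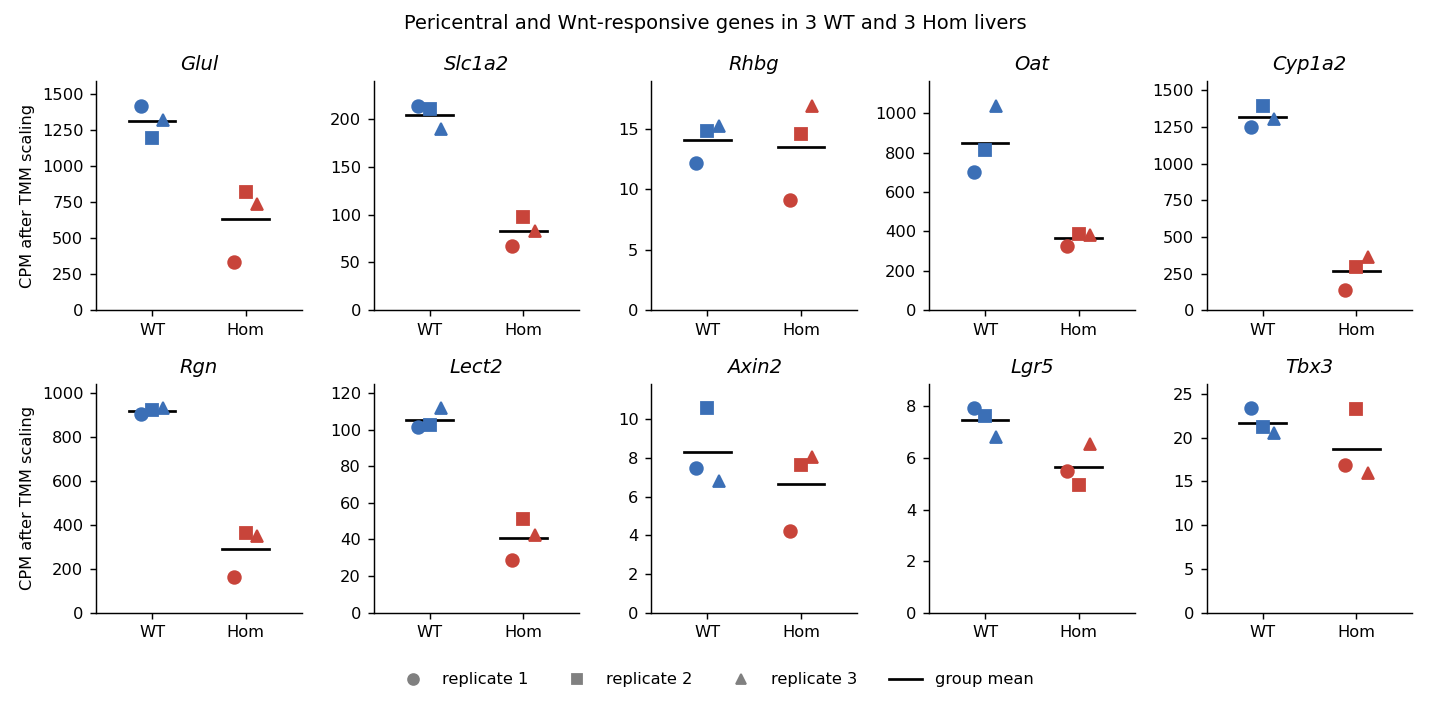
Level of each of the 10 genes in CPM after TMM scaling (vertical axes, each from 0) in 3 WT and 3 Hom livers; points are livers, with the replicate number shown by the symbol, and bars are group means. The Hom livers lie under all WT livers for Glul, Slc1a2, Oat, Cyp1a2, Rgn, Lect2 and Lgr5, and the groups overlap for Rhbg, Axin2 and Tbx3; with library size alone the mean differences of Rhbg, Axin2, Lgr5 and Tbx3 turn positive.

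Glul (glutamine synthetase, NCBI Gene 14645, chr1:153899944-153909723, plus strand) fixes ammonia into glutamine and is restricted in healthy liver to the rim of hepatocytes at the central vein. Glul was at 1422, 1198 and 1321 CPM in WT replicates 1, 2 and 3 and at 334, 822 and 735 CPM in Hom replicates 1, 2 and 3. The groups did not overlap, and Hom replicate 1 was the lowest liver, at 0.43 of the mean of the other Hom livers. The log2 fold change was −1.06 (standard error 0.32, edgeR adjusted p = 0.0357), with a 95% confidence interval from −1.82 to −0.30. This call was the least stable of the 6. It was lost when WT replicate 1, 2 or 3 or Hom replicate 3 was left out (edgeR adjusted p = 0.0745, 0.0745, 0.0766 and 0.0723), with the replicate number as a block (0.0512), with library size alone (log2 fold change −0.58, 0.199) and with hepatocyte scaling (−0.36, 0.390). Without Hom replicate 1 the Glul difference was −0.76 and still past the threshold.

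Slc1a2 (the glutamate transporter GLT-1, NCBI Gene 20511, chr2:102658659-102790784, plus strand) takes up glutamate, the substrate of glutamine synthetase. It was at 214, 210 and 189 CPM in the WT livers and at 66.8, 97.3 and 83.1 CPM in the Hom livers. Every Hom liver was therefore far under every WT liver, and the Hom mean was 40.3% of the WT mean. Its log2 fold change was −1.31 (standard error 0.15, edgeR adjusted p = 0.00108), the smallest adjusted p of the 10 genes. The call held under all 14 alternatives run, with log2 fold changes from −1.45 to −0.65.

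Oat (ornithine aminotransferase, NCBI Gene 18242, chr7:132557478-132576398, minus strand) turns ornithine toward glutamate and is also a pericentral enzyme. Its level was 699.7, 814 and 1039 CPM in WT and 324.5, 389 and 382 CPM in Hom livers. The groups did not overlap, and here the WT livers, not the Hom livers, showed the wider spread. For Oat the log2 fold change was −1.22 (standard error 0.18, edgeR adjusted p = 0.00249). Rhbg (NCBI Gene 58176, chr3:88242874-88254709, minus strand), an ammonium transporter of the same cells, was at 12.1, 14.8 and 15.2 CPM in WT and at 9.10, 14.6 and 16.9 CPM in Hom livers, so the groups overlapped fully. Its log2 fold change was −0.05 (95% confidence interval −0.60 to 0.49, edgeR adjusted p = 0.870). The sign of the Rhbg difference turned with the scaling, to 0.42 with library size alone, and without Hom replicate 1 it was 0.16. Of the 4 genes that handle glutamine, glutamate, ornithine or ammonium, 3 were called lower, against 20.1% of all tested genes. With hepatocyte scaling Glul and Oat lost the call (edgeR adjusted p = 0.390 and 0.0940). Rhbg had an interval that spans changes of either sign.

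Cyp1a2 (NCBI Gene 13077, chr9:57676937-57683703, minus strand), a cytochrome P450 that oxidises caffeine and aromatic amines, had the lowest fold change of the 10 genes. Cyp1a2 was at 1248, 1397 and 1307 CPM in WT and at 140.3, 296 and 364 CPM in Hom livers, where its mean was 20.3% of the WT mean. The log2 fold change was −2.30 (standard error 0.34, edgeR adjusted p = 0.00262), and the call held in all 14 alternatives (log2 fold change −1.997, edgeR adjusted p = 0.00111 without Hom replicate 1). Hom replicate 1 was again the lowest liver.

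Rgn (regucalcin, NCBI Gene 19733, chrX:20549787-20562089, plus strand) is an X-linked calcium-binding protein of hepatocytes with gluconolactonase activity in vitamin C synthesis. Its level was nearly constant in WT livers, at 903.5, 919 and 929 CPM, and 162, 363 and 347 CPM in the Hom livers. The log2 fold change was −1.66 (standard error 0.30, edgeR adjusted p = 0.00551). Lect2 (NCBI Gene 16841, chr13:56542464-56548502, minus strand), a secreted hepatokine and a known beta-catenin target, was at 101, 103 and 112 CPM in WT and at 28.6, 51.2 and 42.5 CPM in Hom livers. Its log2 fold change was −1.37 (standard error 0.20, edgeR adjusted p = 0.00256). For both Rgn and Lect2 the groups were far apart and Hom replicate 1 was the lowest liver.

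The 3 remaining genes are closest to the Wnt pathway itself, and all had few reads. Axin2 (NCBI Gene 12006, chr11:108920349-108950783, plus strand), a scaffold of the beta-catenin destruction complex that the pathway induces as its own brake, had rounded counts of 134, 165 and 111 in WT and of 91, 185 and 187 in Hom livers. After scaling this was 7.48, 10.6 and 6.82 CPM in WT and 4.25, 7.63 and 8.06 CPM in Hom livers, and the groups overlapped. The log2 fold change of Axin2 was −0.32 (95% confidence interval −0.99 to 0.35, edgeR adjusted p = 0.400), and it was 0.16 with library size alone.

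Lgr5 (NCBI Gene 14160, chr10:115450311-115587780, minus strand), the R-spondin receptor of pericentral hepatocytes, was at 7.93, 7.63 and 6.82 CPM in WT and at 5.51, 4.95 and 6.55 CPM in Hom livers. Each Hom liver was under each WT liver, by a small margin, as was true in the same direction for 27.0% of all tested genes. The log2 fold change was −0.40 (standard error 0.16, 95% confidence interval −0.77 to −0.02), and the adjusted p over all genes was 0.0855 (edgeR). With a correction for gene length it passed the threshold (−0.50, edgeR adjusted p = 0.0385), and with library size alone the sign turned (0.056). Tbx3 (NCBI Gene 21386, chr5:119670669-119684724, plus strand), a T-box transcription factor of the pericentral zone, was at 23.3, 21.2 and 20.5 CPM in WT and at 16.9, 23.2 and 15.9 CPM in Hom livers, so that Hom replicate 2 lay within the WT range. Its log2 fold change was −0.21 (95% confidence interval −0.59 to 0.16, edgeR adjusted p = 0.305). Without Hom replicate 2, Tbx3 passed the threshold (−0.40, edgeR adjusted p = 0.0468), and with library size alone its sign turned (0.24).

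**Figure D2:**
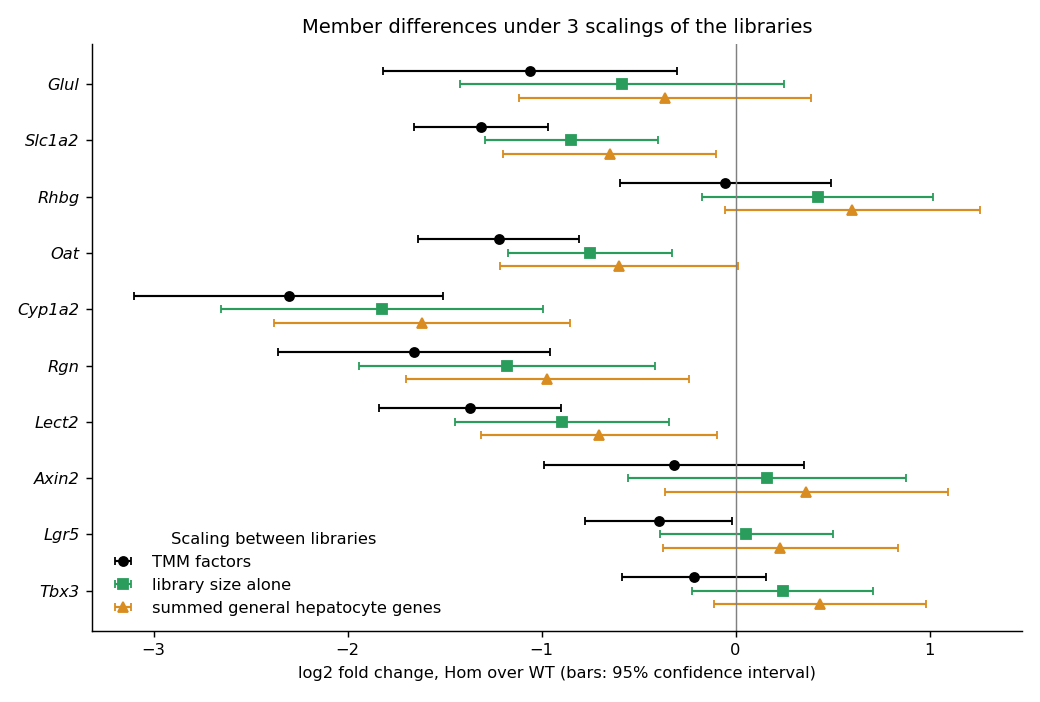
Log2 fold change of each gene, Hom over WT, with 95% confidence intervals (horizontal axis) under 3 ways of scaling the libraries. Every gene moves to the right by a similar step from TMM factors to library size to the summed general hepatocyte genes; Cyp1a2, Rgn, Slc1a2 and Lect2 keep intervals under 0 in all 3, whereas Rhbg, Axin2, Lgr5 and Tbx3 change sign.

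Reads were also compared within each liver, where scaling cancels. Of the 15 general hepatocyte genes, all secreted plasma proteins except Hnf4a, 8 were lower and 0 higher in Hom livers with TMM factors (median log2 fold change −0.41). With library size alone, 4 were lower and 2 higher, and without Hom replicate 3, 4 were lower (5 without WT replicate 2 or 3 or Hom replicate 2). Their summed level was 178463 to 217190 CPM in WT and 113002 to 164968 CPM in Hom livers, highest among Hom livers in replicate 1. Hpx (log2 fold change 1.15) and Trf (0.67) did not pass the threshold. For both, every Hom liver was above every WT liver, and Hom replicate 1 was the highest. Per 1000 reads on these 15 genes, Cyp1a2 had 5.74, 6.54 and 7.33 reads in WT and 0.850, 2.62 and 2.92 in Hom livers. Rgn had 4.16, 4.31 and 5.21 in WT and 0.983, 3.22 and 2.78 in Hom livers. The groups did not overlap for Cyp1a2 (difference in log2 ratio −1.80), Rgn (−1.14), Lect2 (−0.80) or Slc1a2 (−0.72), each with p = 0.1 in an exact two-sided permutation test, the smallest p that 3 livers against 3 allow. Without Hom replicate 1 these differences were −1.23, −0.60, −0.40 and −0.41.

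For Glul the groups overlapped in this comparison, with 6.55, 5.61 and 7.40 reads per 1000 in WT and 2.02, 7.28 and 5.89 in Hom livers. Hom replicates 2 and 3 lay within the WT range and only Hom replicate 1 under it (difference −0.55, p = 0.6 in the exact permutation test). Without Hom replicate 1 the Glul difference was 0.015. For Oat the groups overlapped as well (difference −0.60, exact permutation p = 0.2; −0.35 without Hom replicate 1). For Rhbg, Axin2, Lgr5 and Tbx3 the means were higher in Hom livers, by 0.52, 0.26, 0.21 and 0.38 on the log2 scale, with overlap between groups and exact permutation p-values from 0.3 to 0.7. Without Hom replicate 1 these were 0.94, 0.71, 0.38 and 0.60. With albumin reads alone in place of the 15 genes, the differences were 0.10 for Glul, 0.059 for Oat, −0.062 for Slc1a2, −0.14 for Lect2, −0.48 for Rgn and −1.15 for Cyp1a2. On that scale they were 1.17 for Rhbg, 0.91 for Axin2, 0.86 for Lgr5 and 1.03 for Tbx3. Albumin (Alb) itself was lower in Hom livers (log2 fold change −1.26, a call lost without Hom replicate 3).

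**Figure D3:**
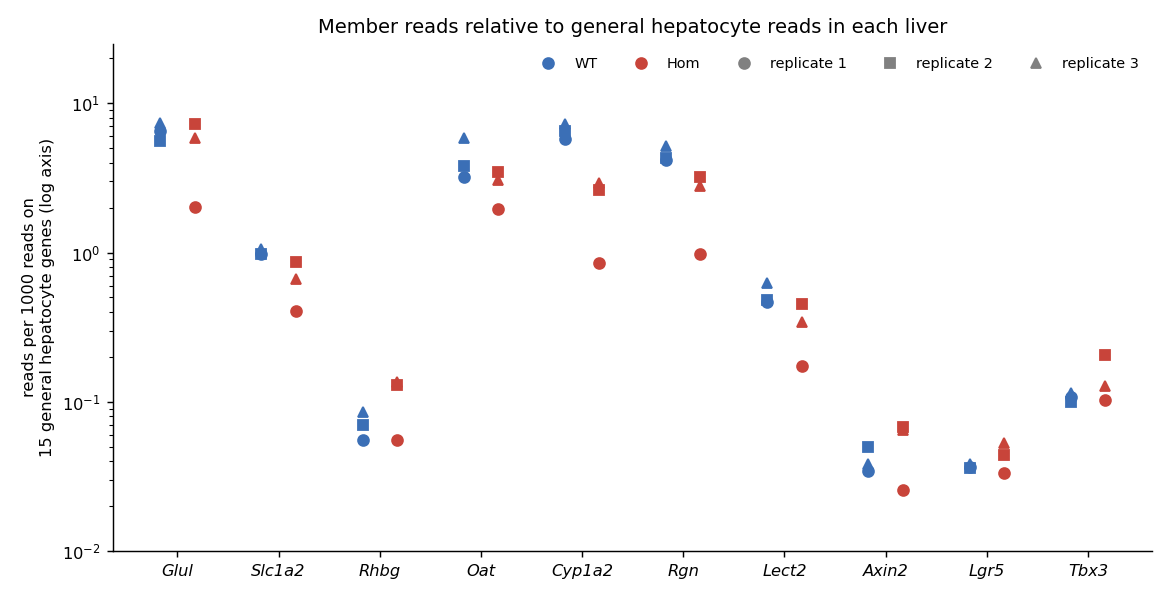
Reads of each gene per 1000 reads on 15 general hepatocyte genes (vertical log axis) in 3 WT and 3 Hom livers; colour gives the group and symbol the replicate. Hom livers lie under all WT livers for Slc1a2, Cyp1a2, Rgn and Lect2, and Hom replicate 1 is the lowest of the Hom livers for each of the 10 genes.

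Ratios between pairs of the 10 genes were also taken; the pairs were picked after their values were seen and are not tested. There were 0.877, 1.17 and 0.989 Cyp1a2 reads for each Glul read in WT livers and 0.420, 0.360 and 0.495 in Hom livers. Cyp1a2 was thus reduced relative to Glul to 0.42 of its WT value (ratio of geometric means), with every Hom liver under every WT liver. The Glul to Axin2 ratio was 190, 113 and 194 in WT and 78.6, 108 and 91.2 in Hom livers, or 0.57 of the WT value. Rhbg reads for each Glul read were 0.00852, 0.0124 and 0.0115 in WT and 0.0273, 0.0177 and 0.0230 in Hom livers, or 2.09 times the WT value. In these 3 ratios the groups did not overlap.

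Levels can be compared between genes only per length, for which the deposited TPM values (transcript abundance per length, not corrected for composition) serve. In WT livers the order was Cyp1a2 (961 to 1105 TPM), Rgn (808 to 966), Glul (582 to 841), Oat (518 to 668), Lect2 (166 to 200), Slc1a2 (50.2 to 58.7), Rhbg (11.7 to 12.1), Tbx3 (5.93 to 8.17), Axin2 (2.21 to 3.45) and Lgr5 (1.98 to 2.77). The ranges of Cyp1a2 and Rgn, Rgn and Glul, Glul and Oat, and Axin2 and Lgr5 overlapped across livers. Within every WT liver, though, Cyp1a2 was above Rgn, Rgn above Glul, and Axin2 above Lgr5. Glul was above Oat in WT replicates 1 and 2 and under it in WT replicate 3. In Hom livers Glul led with 247 to 699 TPM, followed by Rgn (217 to 559), Oat (314 to 434) and Cyp1a2 (155 to 447), all of which overlapped. Cyp1a2 thus went from rank 1 to rank 4, and the last 6 places kept their order. Because TPM carries no composition correction, mean TPM of Rhbg was higher in Hom livers (18.1 against 11.9) while its TMM-scaled level was not.

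The genes whose levels over the 6 livers were most like those of Glul, by the root mean square difference of log2 CPM from the WT mean, were Trmt9b (0.092), Nox4 (0.19) and Bdh1 (0.21). Those most like Cyp1a2 were Abca8a (0.16), Fabp1 (0.24) and Ces1e (0.25), and those most like Axin2 were Rbfox3, Slc34a2 and Fam122b (each 0.13). These likenesses describe 6 libraries, picked from 13805 genes.

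Among 20 other genes with pericentral expression, 12 were lower and 4 higher in Hom livers. Their median log2 fold change was −1.05, and the shares compare with 20.1% lower and 21.5% higher of all tested genes. Car3, a carbonic anhydrase, fell from 2454, 5093 and 5462 CPM in WT to 33.1, 174.5 and 187 CPM in Hom livers (log2 fold change −5.04, edgeR adjusted p = 0.00254). Cyp2e1, which oxidises ethanol and paracetamol, fell from 7229, 9244 and 8136 CPM to 396, 1399 and 1401 CPM (−2.95, edgeR adjusted p = 0.00406). The genes that rose included Gstm3, a glutathione transferase (log2 fold change 2.71), and Cyp7a1, the rate-limiting enzyme of bile acid synthesis (2.12). With library size alone 10 of the 20 were lower and 4 higher, and without Hom replicate 1 or WT replicate 2, 12 were lower and 2 higher. With hepatocyte scaling 7 were lower and 6 higher. Over all 13805 tested genes, 333 were lower and 6350 higher with that scaling, and 642 and 6574 with library size alone.

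Periportal genes mark the opposite end of the lobule. Of 24 genes, 8 were lower and 1 higher, against 20.1% and 21.5% of all tested genes. The median log2 fold change of the 24 was −0.46, and 15 of them did not pass the threshold. Cyp2f2 (log2 fold change −2.14) and G6pc, glucose-6-phosphatase (−1.70), fell the most, and Apoa4 was the one that rose (1.09). Pigr, the immunoglobulin transporter, was the called gene next to it (−0.48) and lost the call with WT replicate 2 or 3 or any of the Hom replicates left out, and its sign turned with hepatocyte scaling (0.16). This periportal count rested on Hom replicate 1: without it, 19 of the 24 genes were lower. It was 5 without WT replicate 2 or Hom replicate 3, and 5 with library size alone.

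Summed reads of the 20 pericentral genes for each summed read of the 24 periportal genes were 0.807, 0.942 and 1.04 in WT livers. In Hom livers the ratio was 0.309, 0.897 and 0.661 in replicates 1, 2 and 3, so that replicate 2 lay in the WT range and replicate 1 far under it. The difference in log2 ratio was −0.70 (exact two-sided permutation test, p = 0.2), and it was −0.27 without Hom replicate 1. The permutation test cannot decide this alone, since the smallest p it allows for 3 livers against 3 is 0.1. The ratios of the 2 groups overlapped, so a shift of pericentral relative to periportal reads was not seen beyond the spread between these 6 livers.

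**Figure D4:**
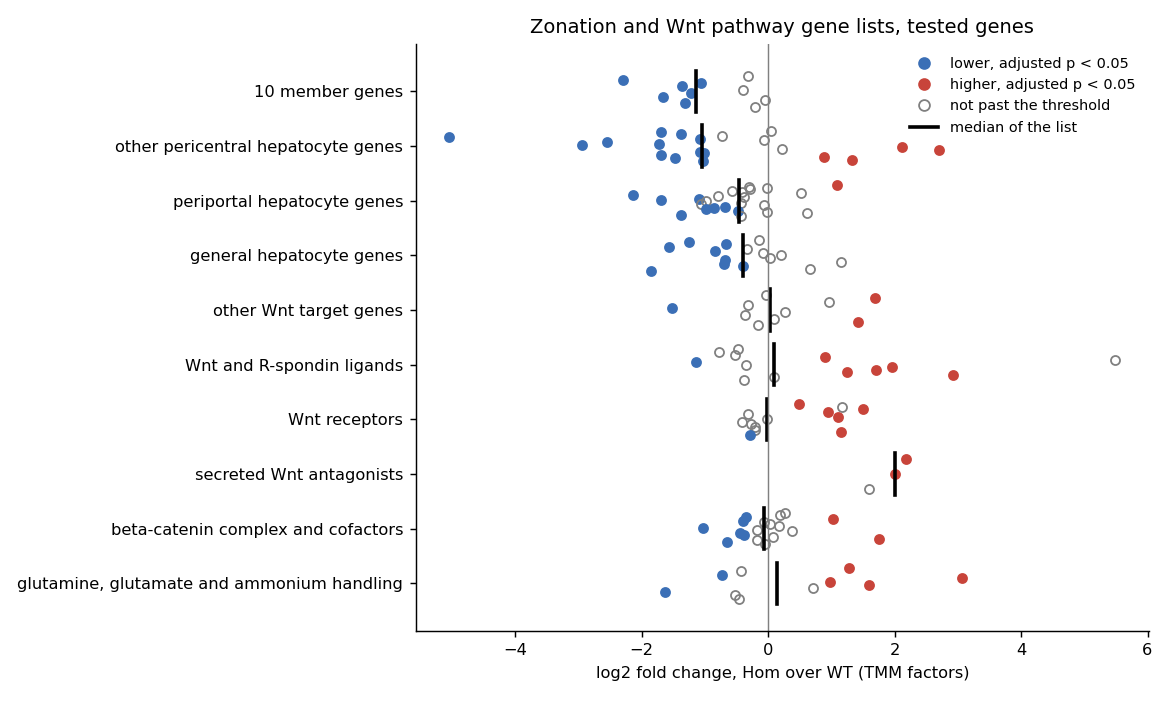
Log2 fold change, Hom over WT with TMM factors (horizontal axis), of every tested gene in the zonation and Wnt pathway lists; filled blue points are lower and filled red points higher at an adjusted p under 0.05, open points did not pass, and black bars are list medians. The medians of the 10 genes (−1.14) and of the other pericentral genes (−1.05) lie furthest to the left.

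Counts among other Wnt target genes were small. Of 12 listed, 10 were tested, of which 1 was lower and 2 were higher, against 20.1% and 21.5% of all tested genes. The other 7 did not pass, and the median log2 fold change of the 10 was 0.03. With library size alone 1 of the 10 was lower and 4 higher (642 and 6574 of all 13805 tested genes). Notum, a secreted enzyme that inactivates Wnt ligands, was the lower one, at 43.2, 32.0 and 33.7 CPM in WT and 11.2, 12.5 and 14.1 CPM in Hom livers (−1.53, edgeR adjusted p = 0.000663). Its call held under every alternative. The 7 that did not pass ran from −0.37 (Sp5) to 0.97 (Myc). Ccnd1, cyclin D1, rose from 47.9, 20.2 and 39.7 to 144.5, 106 and 97.4 CPM (1.69, edgeR adjusted p = 0.00630), and Tnfrsf19 rose as well (1.42), a call that was lost without WT replicate 2. Without WT replicate 3, 3 of the 10 were higher. All 10 listed proliferation genes also rose, Mki67 by a log2 fold change of 2.04. Without Hom replicate 2 or 3, 4 and 6 of them were called, Mki67 not among these. Their part in the Ccnd1 level was not tested.

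Among the ligands, Wnt2 fell from 2.96, 4.30 and 3.44 CPM in WT to 1.45, 1.61 and 1.77 CPM in Hom livers (log2 fold change −1.14, edgeR adjusted p = 0.00865). With library size alone the difference was −0.68 and short of the threshold, and with hepatocyte scaling it was −0.51. The other ligands of the central vein had log2 fold changes of −0.38 for Wnt9b (edgeR adjusted p = 0.322; 0.059 with library size alone) and −0.53 for Rspo3 (0.0938, and 0.0393 without WT replicate 3). Of 13 tested ligand and secretion genes, 1 was lower and 5 were higher, against 20.1% and 21.5% of all tested genes. Without WT replicate 3 or Hom replicate 1, 2 of these ligand and secretion genes were lower. Those that rose included Wnt4 (1.96), Wnt7b (2.93, lost without Hom replicate 2 or 3) and Wls, the carrier that brings Wnt ligands to the cell surface (0.90). Wnt10a, named after its values were seen, was at 40.3 CPM in Hom replicate 1 and under 1 CPM in the other 5 livers. The listed markers of central vein endothelium, Wnt2, Wnt9b and Rspo3 included, summed to 31.5 to 34.6 CPM in WT and 22.6 to 29.2 CPM in Hom livers, with 1 of 7 genes lower and 0 higher (0 lower with library size alone, 2 lower without WT replicate 3). Of 10 sinusoidal endothelial markers 7 were lower and 0 higher (4 lower and 1 higher with library size alone), Dnase1l3 by −2.03; their sum was at most 328 CPM in WT and 125 to 145 CPM in Hom livers. The part of endothelial cell numbers in the Wnt2 level was not tested.

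Receptor genes were split, with 1 lower and 5 higher of 13 tested, against 20.1% and 21.5% of all tested genes. The median log2 fold change of the 13 was −0.01. Of them, 2 were lower without WT replicate 1, and 0 without WT replicate 2 or 3 or Hom replicate 2 or 3. Fzd3 (to 287% of the WT mean), Ror1 (log2 fold change 1.16) and Fzd1 (0.49) rose, and Ryk was lower by a small amount (−0.29); the calls of both Fzd1 and Ryk were lost without WT replicate 1 or 3 or Hom replicate 2 or 3, that of Ryk also without WT replicate 2, and the sign of Ryk turned with library size alone (0.16). Lgr4, the more abundant R-spondin receptor of hepatocytes, was at 49.3, 66.3 and 53.2 CPM in WT and 51.2, 42.8 and 45.2 CPM in Hom livers (−0.28, edgeR adjusted p = 0.128; 0.18 with library size alone). The secreted antagonists Dkk3 (2.18) and Frzb (2.01) rose, under every alternative run, and were 2 of the 3 tested of 10 listed. Ctnnb1, which encodes beta-catenin, was at 180, 205 and 196 CPM in WT and 204, 212 and 234 CPM in Hom livers (0.16, edgeR adjusted p = 0.219; 0.63 and called with library size alone). Of the 18 genes of the beta-catenin complex and its cofactors, 6 were lower and 2 higher, against 20.1% and 21.5% of all tested genes. With library size alone 1 of the 18 was lower and 9 higher (642 and 6574 of all 13805 tested genes). Without WT replicate 2, Hom replicate 2 or Hom replicate 3, 2 were lower and 1 higher, and without WT replicate 1, 4 were lower. Ctnnbip1, an inhibitor of beta-catenin and TCF binding, fell (−1.03, lost with hepatocyte scaling), as did Tcf7l1 (−0.65, lost without WT replicate 1 or 2 or Hom replicate 2 or 3), while the coactivator genes Bcl9 (1.02) and Pygo1 (1.75, lost without WT replicate 2 or Hom replicate 2 or 3) rose.

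Of 10 other tested genes of glutamine, glutamate and ammonium handling, 2 were lower and 4 higher, against 20.1% and 21.5% of all tested genes. With library size alone 1 of the 10 was lower and 5 higher. Without Hom replicate 1, 4 were lower and 3 higher, without WT replicate 1, 3 and 4, and without WT replicate 2 or Hom replicate 3, 2 and 2. Slc38a2, a neutral amino acid transporter, fell (log2 fold change −1.62), and so did Glud1, glutamate dehydrogenase (−0.73, but −0.28 and not called with library size alone). Slc1a1 (3.06, lost without WT replicate 1 or 2 or Hom replicate 2 or 3) and Slc1a5 (1.59), carriers of glutamate and of glutamine, rose from means of 0.346 and 3.05 CPM to 2.91 and 9.24 CPM.

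Markers of other liver cells moved alongside these genes. For comparison with the counts below, 20.1% of all tested genes were lower and 21.5% higher. Of 10 cholangiocyte markers 9 rose, led in level by Spp1 (3.78), and their sum went from 71.8 to 101 CPM in WT to 627 to 877 CPM in Hom livers. Of 10 stellate cell and fibroblast markers 5 were higher and 2 lower (sum 495 to 604 CPM in WT and 660 to 725 CPM in Hom livers), the most abundant called one, Ecm1, being among the lower (−2.30). Macrophage markers gave 3 higher and 2 lower of 10, with 1 to 5 higher and 1 to 3 lower when single livers were left out (sum 240 to 602 CPM in WT and 390 to 491 CPM in Hom livers), with Lyz2 at 1.30 (lost without WT replicate 2 or 3 or Hom replicate 2 or 3). Lymphocyte markers gave 1 higher of 6 tested (2 without WT replicate 1 or Hom replicate 1), Cd3e (1.74, lost without WT replicate 2 or 3 or Hom replicate 2 or 3), at sums under 15 CPM in every liver. The part of these cell types in the levels of the 10 genes was not tested.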

How the data were processed

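Liver RNA of 3 WT and 3 Hom mice was sequenced by BGI Genomics on the DNBSEQ platform after Trizol extraction. The submitters' processing notes name HISAT2 2.0.4, Bowtie2 2.2.5, RSEM 1.2.12 and mm9; annotation and strandedness are not given in the sources used here. Per liver, the authors deposited RSEM's expected counts, which are estimated counts per gene with no scaling. They also deposited FPKM and TPM values, which they scaled for gene length and library, plus group means, which were not used. FPKM served only to recover gene length. The file holds no coordinates, so GRCm38 positions are not of the authors' build.

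Counts were rounded, filtered (filterByExpr, 13805 of 17975 genes), TMM-scaled and tested with edgeR 4.0.16 (R 4.3.3) by the quasi-likelihood test with Benjamini-Hochberg adjustment over all tested genes; calls need an adjusted p under 0.05. Standard errors derive from the F statistic. The fit was tested on simulated data. The 10 genes and all lists were chosen with earlier results of these data known. Named were the 10 genes, key ligands and receptors, the 2 largest and 2 smallest called changes of each pathway list, and the most abundant called marker of each cell type. Replicate numbers mark different mice and deviations of same-numbered livers were not shared (correlations −0.11 to −0.05). No library was a repeat of another (chi-square over degrees of freedom of 22.3 or more for pairs within a group). Alternatives were DESeq2 1.42.0, other scalings and filters, the replicate block, a gene length correction and each liver left out.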

Additional observations from a re-analysis of the deposited data

How the results depend on the processing

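The log2 fold changes of all 6 lower genes stayed negative under every alternative run, and Cyp1a2, Slc1a2 and Rgn also kept the call. With libraries scaled to the general hepatocyte genes (median of all genes 0.62), 3 of the 10 genes were lower (Glul, Oat and Lect2 lost the call at adjusted p of 0.390, 0.0940 and 0.0529 in edgeR's test), the other pericentral genes gave 7 lower and 6 higher, the periportal genes 3 lower and 3 higher, and the other Wnt targets 5 higher. With library size alone the periportal genes gave 5 lower and 3 higher and the Wnt targets 4 higher. Over all 13805 tested genes, 333 were lower and 6350 higher with hepatocyte scaling, and 642 and 6574 with library size alone. With the replicate block, 2 periportal genes were higher and the count of lower genes among the 10 was 5; same-numbered livers are different mice. Log2 fold changes of the 10 genes reversed for 4 uncalled ones: for Rhbg 0.42 (library size alone), 0.039 (upper-quartile factors), 0.60 (hepatocyte scaling), 0.0095 (gene length correction), 0.0015 (without WT replicate 3) and 0.16 (without Hom replicate 1; −0.24 to 0.16 over all livers left out in turn), and for Axin2, Lgr5 and Tbx3 0.16, 0.056 and 0.24 with library size alone and 0.37, 0.23 and 0.44 with hepatocyte scaling. Per general hepatocyte read, the Glul difference turned to 0.10 with albumin alone and to 0.015 without Hom replicate 1 (−0.91 to 0.015 over single livers left out), and that of Oat to 0.059 with albumin alone. The cause was not tested. With 1 liver left out at a time, 5 to 7 of the 10 genes were lower and 0 higher, other pericentral genes gave 12 to 13 lower and 2 to 3 higher, periportal genes 5 to 19 lower and 1 to 2 higher, other Wnt targets 1 lower and 1 to 3 higher, and the pericentral to periportal log2 ratio differed by −1.03 to −0.27. All 6 lower genes had a change of at least 1 on the log2 scale. Axin2 and Lgr5, with 91 to 187 reads per liver, had wide intervals relative to their differences.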
